A study of Mus musculus with 16 samples.

Results

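The chemokine receptors of macrophages are represented here by 6 genes, chosen by symbol from the 22287 genes of the count matrix. They were the chemokine receptors Ccr1, Ccr2, Cx3cr1 and Cxcr4, the atypical receptor Ccrl2, and Cx3cl1, the ligand of Cx3cr1. The rule goes by symbol alone, and all 6 were among the 12514 genes that passed the expression filter. Macrophages were grown from bone marrow of male C57BL/6J mice labelled as 8 weeks old, over 7 days. They were given either GM-CSF at 20 ng/ml (GM cultures) or M-CSF at 50 ng/ml (M cultures). By the study's methods GM cultures were seeded at a higher cell density than M cultures. Growth factor and seeding density therefore cannot be told apart here. Cells were kept on a standard tissue culture dish (TC) or on a dish not conditioned for adherence (noTC), and were then given vehicle (steady state) or 100 ng/ml LPS for 3 h. This made 8 groups of 2 biological replicates, named for example GM-TC or M-noTC-LPS. The sources used here do not say whether replicates came from different mice, so the p-values measure the spread between these cultures only. All groups were whole cultures, and in such bulk RNA fewer cells of a type and less RNA per cell cannot be told apart.

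Chemokine receptors are G protein coupled receptors that steer leukocytes along gradients of small secreted proteins. Ccr2 carries monocytes out of the bone marrow toward Ccl2 and Ccl7, Ccr1 answers inflammatory ligands such as Ccl3, Ccl5 and Ccl9, and Cxcr4 holds cells in the marrow through Cxcl12. Cx3cr1 binds Cx3cl1 (fractalkine), a membrane-anchored chemokine that ADAM proteases release, and marks patrolling monocytes and many resident macrophages. Ccrl2 binds the chemoattractant chemerin and presents it to neighbouring cells without signalling through G proteins itself.

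Libraries held between 17527802 and 31458363 counts, at which 3 counts correspond to 0.0954 to 0.171 CPM, counts scaled by library size. Levels are CPM scaled with TMM factors, and changes are log2 fold changes ± SE from edgeR's quasi-likelihood test over all 16 libraries. A change was called at a p-value under 0.05 after Benjamini-Hochberg adjustment over all genes tested. The 8 macrophage markers (Adgre1, Csf1r, Cd68, Itgam, Lyz2, Fcgr1, Mertk, Cd14) summed to between 20500 and 47800 CPM. Lyz2 made up most of that sum, at 35500 CPM in GM-TC and 19400 CPM in M-TC. The 9 lymphocyte markers stayed at or under 2.29 CPM, and Cd3e was at 0 CPM in every group. Some libraries stood apart. The 7 heart muscle markers summed to between 17.3 and 53.7 CPM in the TC steady state libraries and to at most 1.57 CPM in all others. Some genes were near absent from the TC steady state libraries but abundant in other conditions. In the noTC steady state libraries they were in excess by a median of 0.675% (GM, 15 genes) and 0.600% (M, 19 genes). These percentages are of their mean in 10 libraries of other conditions. The genes were picked by low values in the same TC libraries that the excess is measured from, a choice that favours a positive excess. Scaling by library size alone shifted the median change of all genes upon LPS challenge by -0.48 (TC) and -0.51 (noTC) in GM cultures and by -0.83 (TC) and -0.72 (noTC) in M cultures relative to TMM, and log2 fold changes below are on the TMM scale.

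The upstream promoter sequences are shown for the 3 members with the largest mean change over the 4 comparisons of LPS with vehicle. Each is the 250 bases before the annotated start from RefSeq on GRCm38.p6, 5′ to 3′ on the gene's strand, with matched motifs in capitals. The capitals mark an NF-kB motif in Ccrl2 and a TATA box (TATAAA) in Cx3cl1 and Cxcr4.

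Ccrl2 (chr9:111057519-111057768, minus strand): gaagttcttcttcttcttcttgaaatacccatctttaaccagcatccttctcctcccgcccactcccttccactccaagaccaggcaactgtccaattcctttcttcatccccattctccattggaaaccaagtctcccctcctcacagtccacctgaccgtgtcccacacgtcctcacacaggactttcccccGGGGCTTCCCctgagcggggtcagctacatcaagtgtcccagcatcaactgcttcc

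Cx3cl1 (chr8:94771930-94772179, plus strand): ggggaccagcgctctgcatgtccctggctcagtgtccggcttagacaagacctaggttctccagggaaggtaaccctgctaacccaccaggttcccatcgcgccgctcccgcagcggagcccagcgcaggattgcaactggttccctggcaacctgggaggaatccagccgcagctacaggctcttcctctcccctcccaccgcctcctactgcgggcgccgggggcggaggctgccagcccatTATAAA

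Cxcr4 (chr1:128592300-128592549, minus strand): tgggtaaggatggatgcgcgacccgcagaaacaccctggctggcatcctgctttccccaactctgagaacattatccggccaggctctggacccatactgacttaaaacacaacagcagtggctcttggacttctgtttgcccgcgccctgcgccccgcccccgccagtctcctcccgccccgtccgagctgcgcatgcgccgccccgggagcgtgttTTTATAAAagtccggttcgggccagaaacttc

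Among the promoters of the RefSeq table, in windows from 250 bases before to 50 after the start, 4.51% of 32851 held the NF-kB motif on either strand and 13.6% the TATA box. The NF-kB match of Ccrl2 covered bases -56 to -47 from the start. The TATA box of Cxcr4 lay at -30 to -25, overlapped by a match on the opposite strand from -32 to -27, and that of Cx3cl1 lay at -6 to -1. Of the 3 starts that the table gives for Ccrl2 the most upstream is shown, and the windows of the other two held no match. Searched on both strands, the motifs ISRE, AP-1 (TGANTCA), CRE (TGACGTCA), PU.1 (GAGGAAGT) and C/EBP (TTGCNNAA) had no match in any member, against shares of 3.44%, 7.81%, 1.79%, 3.20% and 10.8% of all windows. None of the 7 motifs matched in the windows of Ccr1, Ccr2 and Cx3cr1. A match is a string of letters, and no binding was measured.

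**Figure D1:**
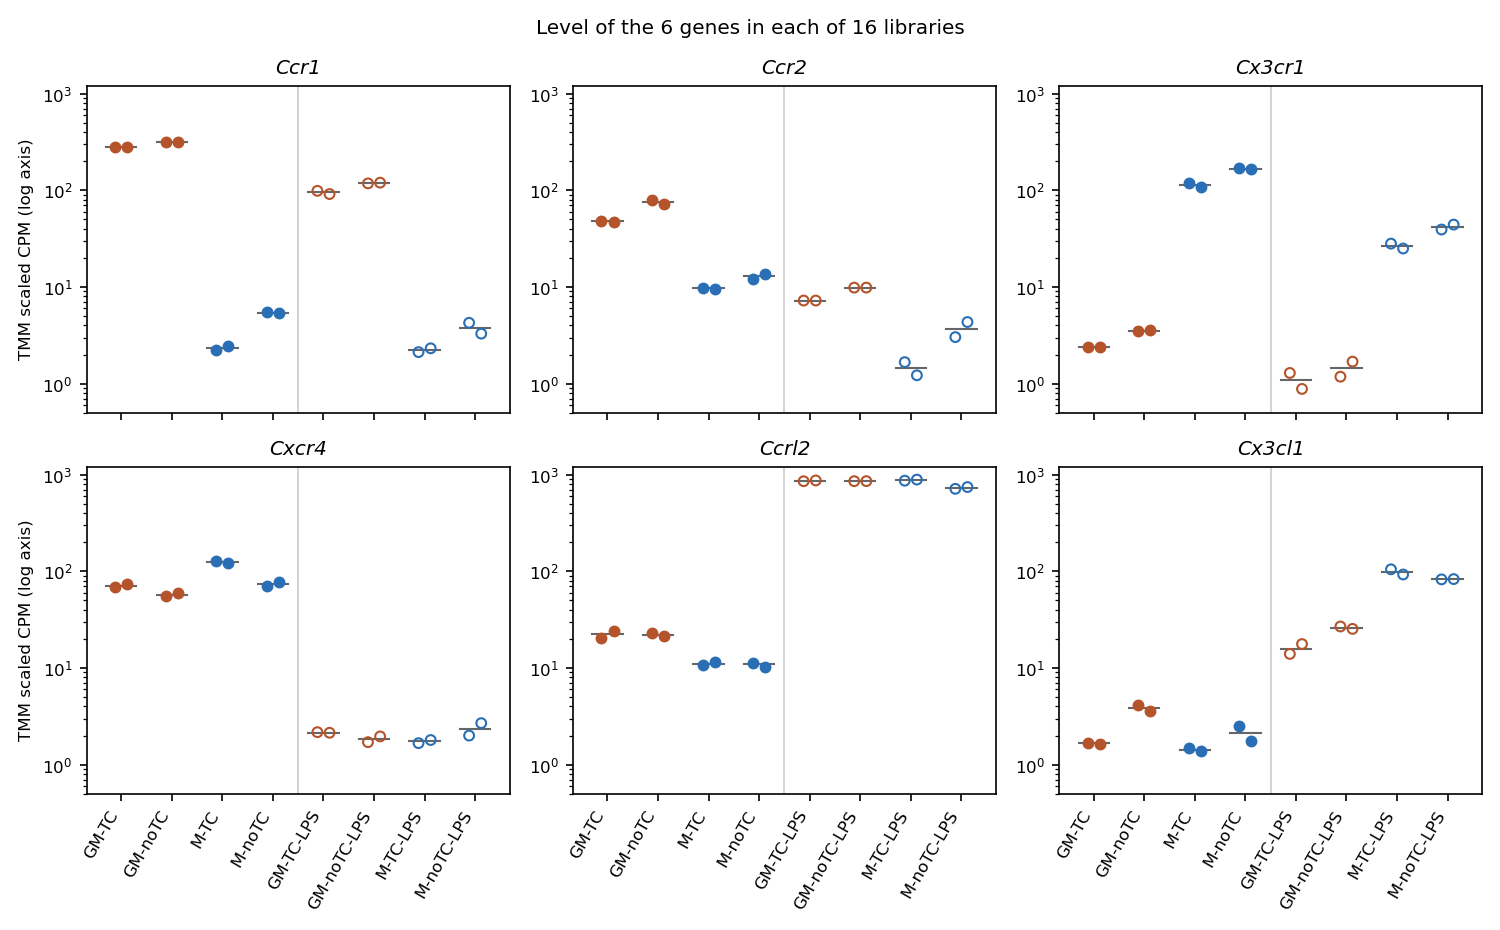
Level of each gene in the 16 libraries, as TMM scaled CPM on a log axis, with steady state groups as filled and LPS groups as open circles, GM in orange and M in blue, and the mean of 2 libraries as a line. Ccr1 lay above 280 CPM in GM and below 6 CPM in M at steady state, and Cx3cr1 showed the opposite order. Cxcr4, Ccrl2 and Cx3cl1 separated all vehicle libraries from all LPS libraries.

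Ccr1 (ENSMUSG00000025804, chromosome 9), a receptor for inflammatory CC chemokines, was high in GM-CSF cultures and low in M-CSF cultures. It reached 281 and 282 CPM in GM-TC and 316 and 313 CPM in GM-noTC, against 2.23 and 2.47 CPM in M-TC and 5.46 and 5.32 CPM in M-noTC. Upon LPS challenge it stood at 98.8 and 91.5 CPM in GM-TC-LPS and 118 and 120 CPM in GM-noTC-LPS. The M groups with LPS held 2.12 and 2.32 CPM on TC and 4.26 and 3.29 CPM on noTC. Every GM library lay above every M library, and only M-TC and M-TC-LPS overlapped among neighbours in the order of the 8 groups. At steady state Ccr1 was higher in GM by 6.90 ± 0.0884 on the log2 scale on TC (adjusted p = 5.4e-24) and by 5.87 ± 0.0755 on noTC (adjusted p = 8.1e-24). LPS lowered it by 2.96-fold in GM-TC (log2 -1.57 ± 0.0574, adjusted p = 1.8e-16) and by 2.64-fold in GM-noTC (-1.40 ± 0.0563, adjusted p = 9.5e-16). In M-noTC it fell by 0.51 ± 0.124 (adjusted p = 0.00086), a call that was lost without M-noTC-LPS replicate 2 (-0.34, adjusted p = 0.074). In M-TC the change was -0.09 ± 0.177 (adjusted p = 0.70, 95% interval -0.46 to 0.28), and it became a call of -0.91 only when libraries were scaled by their size alone.

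Ccr2 (ENSMUSG00000049103, chromosome 9), the receptor by which monocytes leave the marrow, was also higher in GM than in M cultures under each dish and treatment. Its libraries stood at 48.4 and 47.0 CPM in GM-TC, 79.9 and 72.7 CPM in GM-noTC, 9.85 and 9.54 CPM in M-TC, and 12.1 and 13.6 CPM in M-noTC. With LPS they stood at 7.24 and 7.24 CPM in GM-TC-LPS, 9.85 and 9.85 CPM in GM-noTC-LPS, 1.67 and 1.22 CPM in M-TC-LPS, and 3.03 and 4.34 CPM in M-noTC-LPS. No neighbouring groups overlapped, although GM-noTC-LPS and M-TC met at 9.85 CPM, and each LPS group lay below its vehicle group. Steady state Ccr2 was 4.92-fold higher in GM on TC (log2 2.30 ± 0.0953, adjusted p = 2.9e-15) and 5.90-fold higher on noTC (2.56 ± 0.0859, adjusted p = 6.0e-17). The fall upon LPS challenge was 6.58-fold on TC and 7.74-fold on noTC in GM cultures, and 6.6-fold on TC and 3.5-fold on noTC in M cultures, with adjusted p-values of 4.0e-16, 1.7e-17, 4.0e-12 and 3.5e-11. The expected counts of Ccr2 were not whole in 6 of 16 libraries, so its values are uncertain where reads could be split between genes.

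Cx3cr1 (ENSMUSG00000052336, chromosome 9), the fractalkine receptor, had the opposite order and was high in M-CSF cultures. It reached 119 and 107 CPM in M-TC and 171 and 165 CPM in M-noTC, and 2.42 and 2.42 CPM in GM-TC and 3.47 and 3.58 CPM in GM-noTC. With LPS the M libraries stood at 28.1 and 25.0 CPM on TC and 39.3 and 44.2 CPM on noTC, and the GM libraries at 1.29 and 0.882 CPM on TC and 1.18 and 1.69 CPM on noTC. All M libraries lay above all GM libraries, and only the 2 GM groups with LPS overlapped. The steady state difference was 46.6-fold on TC (log2 -5.54 ± 0.113, adjusted p = 8.4e-21) and 47.5-fold on noTC (-5.57 ± 0.101, adjusted p = 1.4e-21), lower in GM. LPS lowered Cx3cr1 by 4.25-fold in M-TC (-2.09 ± 0.0795, adjusted p = 2.4e-16) and 4.02-fold in M-noTC (-2.01 ± 0.0742, adjusted p = 1.5e-16). In GM it fell by 2.24-fold on TC (-1.16 ± 0.252, adjusted p = 0.00035) and 2.44-fold on noTC (-1.29 ± 0.208, adjusted p = 1.2e-05). An exon of Gm33858 overlaps Cx3cr1 on the opposite strand, and as the sources used here do not say whether counting used strand, reads of the pair cannot be told apart.

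Cxcr4 (ENSMUSG00000045382, chromosome 1), the receptor for Cxcl12, showed the steepest fall of the 6 genes upon LPS challenge. At steady state it stood at 69.0 and 73.7 CPM in GM-TC, 55.2 and 60.1 CPM in GM-noTC, 127 and 122 CPM in M-TC, and 71.0 and 78.1 CPM in M-noTC. With LPS the libraries held 2.17 and 2.14 CPM in GM-TC-LPS, 1.71 and 1.96 CPM in GM-noTC-LPS, 1.67 and 1.80 CPM in M-TC-LPS, and 2.0 and 2.69 CPM in M-noTC-LPS. All 8 LPS libraries lay below all 8 steady state libraries. M-noTC overlapped with GM-TC, M-noTC-LPS with GM-TC-LPS, and GM-noTC-LPS with M-TC-LPS. The fall was 33.1-fold on TC (log2 -5.05 ± 0.112) and 31.3-fold on noTC (-4.97 ± 0.116) in GM cultures, and 71.8-fold on TC (-6.17 ± 0.114) and 31.7-fold on noTC (-4.98 ± 0.110) in M cultures, with adjusted p-values of 2.3e-20, 5.4e-20, 5.3e-22 and 1.3e-20. At steady state Cxcr4 was 1.75-fold lower in GM-TC than in M-TC (adjusted p = 4.2e-10) and 1.29-fold lower in GM-noTC than in M-noTC (adjusted p = 4.2e-05). After LPS the growth factors did not differ by the test, at 0.31 (95% interval -0.15 to 0.78) on TC and -0.36 (-0.79 to 0.08) on noTC for GM against M.

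Ccrl2 (ENSMUSG00000043953, chromosome 9), the atypical chemerin receptor, rose upon LPS challenge to between 856 and 890 CPM in 3 of 4 cultures. It started at 20.6 and 24.0 CPM in GM-TC, 22.8 and 21.5 CPM in GM-noTC, 10.7 and 11.6 CPM in M-TC, and 11.4 and 10.3 CPM in M-noTC. With LPS it reached 856 and 872 CPM in GM-TC-LPS, 857 and 858 CPM in GM-noTC-LPS, 867 and 890 CPM in M-TC-LPS, and 714 and 745 CPM in M-noTC-LPS. The M-noTC-LPS libraries were the lowest of the LPS libraries, and the other 3 LPS groups overlapped with their neighbours. The rise was 38.6-fold on TC (log2 5.27 ± 0.0695) and 38.7-fold on noTC (5.28 ± 0.0688) in GM cultures, and 78.8-fold on TC (6.30 ± 0.0745) and 67.4-fold on noTC (6.07 ± 0.0725) in M cultures, with adjusted p-values of 2.6e-24, 2.7e-24, 3.4e-25 and 5.0e-25. Steady state Ccrl2 was 2.01-fold higher in GM on TC (adjusted p = 4.7e-10) and 2.04-fold higher on noTC (adjusted p = 1.0e-10). With LPS the difference of GM against M was -0.02 on TC (95% interval -0.14 to 0.09) and 0.23 ± 0.0540 on noTC (adjusted p = 0.00067). The NF-kB motif printed above lies before 1 of the 3 listed starts of Ccrl2, and its part in the rise was not tested.

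Cx3cl1 (ENSMUSG00000031778, chromosome 8), the ligand of Cx3cr1, was low at steady state and rose most in the M cultures. Steady state libraries held 1.67 and 1.65 CPM in GM-TC, 4.12 and 3.58 CPM in GM-noTC, 1.48 and 1.38 CPM in M-TC, and 2.49 and 1.77 CPM in M-noTC. With LPS they held 14.0 and 17.7 CPM in GM-TC-LPS, 26.9 and 25.4 CPM in GM-noTC-LPS, 105 and 92.8 CPM in M-TC-LPS, and 82.6 and 83.2 CPM in M-noTC-LPS. All LPS libraries lay above all steady state libraries, and both M groups with LPS lay above both GM groups with LPS. The rise was 9.55-fold on TC (log2 3.26 ± 0.168) and 6.80-fold on noTC (2.77 ± 0.127) in GM cultures, and 68.9-fold on TC (6.11 ± 0.135) and 39.9-fold on noTC (5.32 ± 0.121) in M cultures, with adjusted p-values of 1.0e-13, 1.2e-14, 1.2e-20 and 2.2e-20. Between growth factors the steady state values did not differ by the test on TC (0.21, 95% interval -0.34 to 0.76), and GM was higher by 0.89 ± 0.182 on noTC (adjusted p = 0.00021). With LPS, Cx3cl1 was 6.21-fold lower in GM on TC (adjusted p = 2.8e-16) and 3.17-fold lower on noTC (adjusted p = 3.1e-13).

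**Figure D2:**
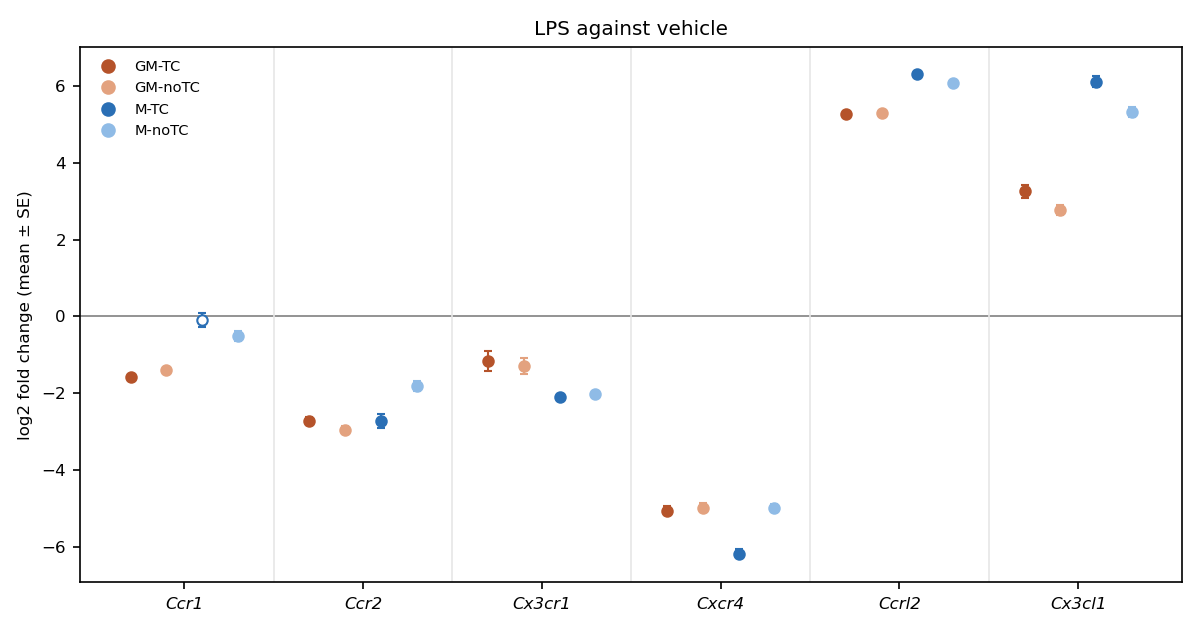
Log2 fold change of LPS against vehicle with its SE for each gene in the 4 cultures, with filled points for calls at an adjusted p under 0.05 and open points for the rest. Cxcr4 lies between -4.97 and -6.17 and Ccrl2 between 5.27 and 6.30 in all 4 cultures, and Cx3cl1 is higher in M than in GM.

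Upon LPS challenge 2 members rose and 4 fell in GM-TC, GM-noTC and M-noTC, and 2 rose and 3 fell in M-TC. Of all genes tested, the share called for LPS was 67.0% on TC and 67.7% on noTC in GM, and 74.0% on TC and 72.3% on noTC in M, so a call alone sets no member apart. The 4 comparisons have libraries of their own. The summed monocyte markers moved with LPS too, from 812 and 912 to 2320 and 2530 CPM in GM-TC and from 8.86 and 8.31 to 378 and 420 CPM in M-TC, mostly through Vcan. The 7 stromal and endothelial markers went from 18.5 and 18.8 to 58.9 and 52.2 CPM in GM-TC and from 15.5 and 13.8 to 87.7 and 89.1 CPM in M-TC, mostly through Kdr, which was at 11.3 CPM in M-TC and 83.5 CPM in M-TC-LPS. In GM-TC the neutrophil markers went from 13.2 and 17.2 to 28.6 and 36.3 CPM. The summed dendritic cell markers there went from 51.0 in both libraries to 85.8 and 92.0 CPM, mostly through Ccr7. Ccr7 went from 9.41 to 56.0 CPM, while Clec9a fell from 31.5 to 9.59 CPM. Of the 6 dendritic cell markers tested, 4 rose and 2 fell in GM-TC. All 7 heart muscle markers fell with LPS in GM-TC and M-TC, and none was called in the noTC cultures. The part of these markers in the members' changes was not tested.

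In levels per kilobase of merged exons, the scale on which genes can be set side by side, Ccr1 led in GM-TC at 99.4 CPM per kb and Cxcr4 led in M-TC at 69.0 CPM per kb. In every LPS group Ccrl2 led, between 281 and 338 CPM per kb, followed by Ccr1 in GM (33.6 and 42.0 CPM per kb on TC and noTC) and by Cx3cl1 in M (25.1 and 21.1 CPM per kb). The order was then without overlap except for Ccr2 and Ccr1 in M-noTC and for Ccr1 and Cxcr4 in M-noTC-LPS.

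GM and M cultures differed in 5 of 6 members at steady state on TC, 3 higher and 2 lower in GM, where 61.5% of all genes were called. On noTC 4 members were higher and 2 lower in GM, beside 62.1% of all genes. With LPS 2 were higher and 2 lower on TC (66.8% of all genes) and 3 higher and 2 lower on noTC (66.1%). These comparisons share their libraries with the LPS and dish comparisons. Ccr1, Ccr2 and Cx3cr1 kept one direction in all 4, Ccr1 and Ccr2 higher and Cx3cr1 lower in GM. Of the 8 macrophage markers 3 were higher and 5 lower in GM in each of the 4 comparisons. At steady state on TC, Adgre1 was at 221 CPM in GM and 824 CPM in M, and Csf1r at 842 and 2860 CPM. Itgam went the other way, at 1870 and 733 CPM. Markers of other cells also differed between the growth factors. At steady state 5 monocyte markers (Ly6c2, F13a1, Vcan, Chil3, Plac8) summed to 534 to 912 CPM in GM and 8.31 to 13 CPM in M. Chil3 made up most of the GM sum, at 820 CPM in GM-TC and 481 CPM in GM-noTC. In M-TC Chil3 was at 2.01 CPM. In GM-TC and M-TC, Vcan was at 22.3 and 3.03 CPM and Ly6c2 at 13.8 and 0.0948 CPM. F13a1 was at 5.13 and 3.24 CPM and Plac8 at 0.257 and 0.196 CPM there. The 8 dendritic cell markers summed to 51.0 to 61.4 CPM in GM and 1.24 to 1.76 CPM in M, and the 10 neutrophil markers to 13.2 to 24.9 CPM and 0.337 to 0.650 CPM. Of the dendritic cell markers Clec9a was at 31.5 CPM and Flt3 at 0.161 CPM in GM-TC, and of the neutrophil markers Ngp was at 6.38, S100a9 at 3.15, S100a8 at 2.54, Ltf at 2.21 and Ly6g at 0.0805 CPM there. The 6 mast cell and basophil markers summed to 3.13 to 6.48 CPM in GM and 0.0337 to 0.15 CPM in M. By the test on TC, 4 of 5 monocyte, 5 of 6 dendritic cell, 6 of 6 neutrophil and 3 of 3 mast cell and basophil markers tested were higher in GM. The part of all these markers in the differences of Ccr1, Ccr2 and Cx3cr1 was not tested.

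**Figure D3:**
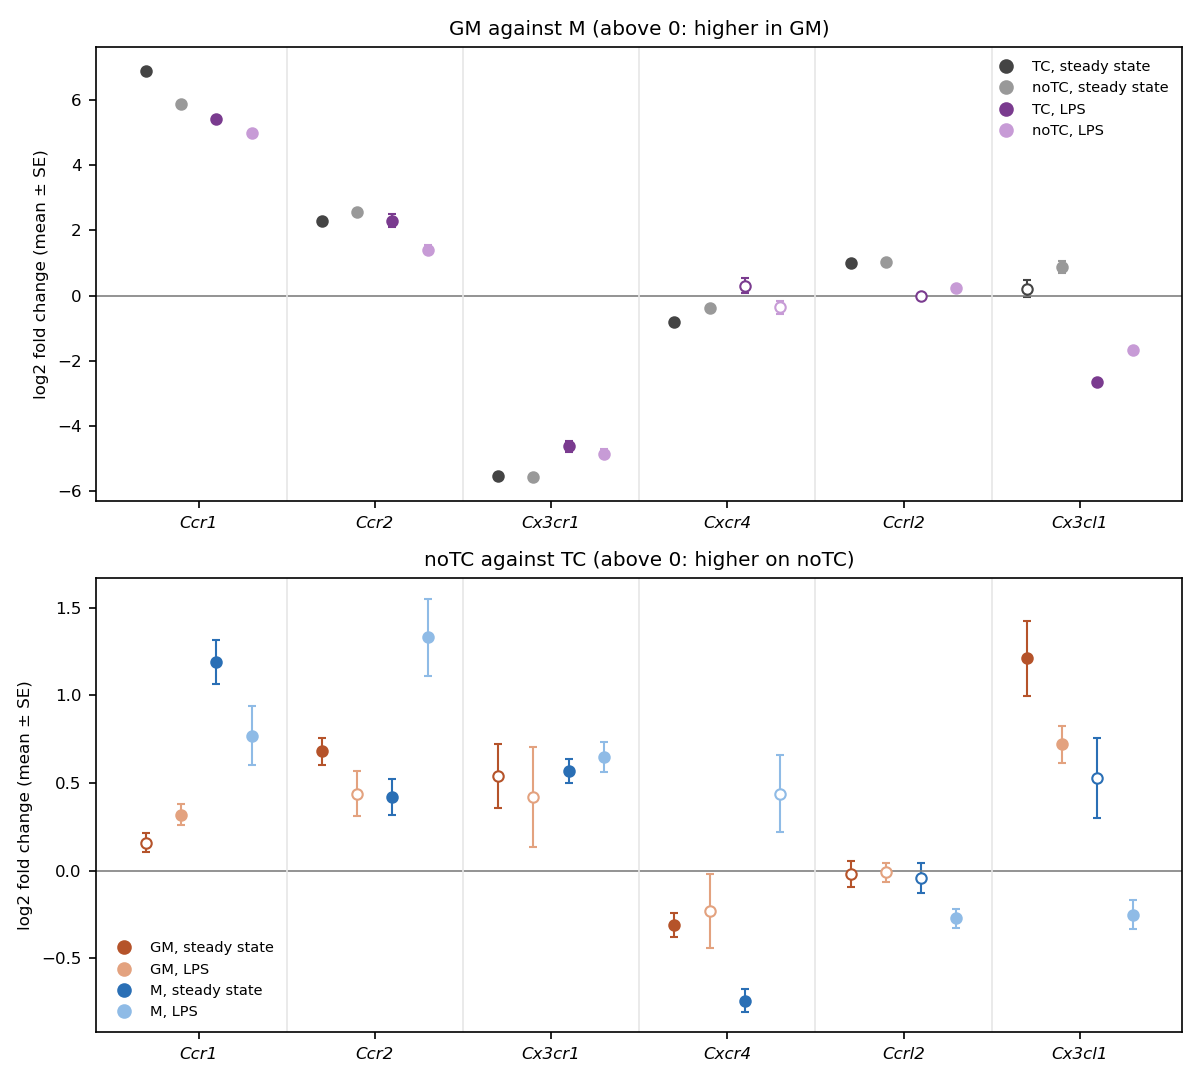
Log2 fold change with its SE of GM against M (upper panel) and of noTC against TC (lower panel) for each gene in 4 settings, with filled points for calls at an adjusted p under 0.05. Ccr1 lies between 4.98 and 6.90 and Cx3cr1 between -5.57 and -4.62 for the growth factors, and the dish moves no member by more than 1.33.

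Between the dishes, in GM at steady state Ccr2 and Cx3cl1 were higher and Cxcr4 lower on noTC comparing with TC, 3 of 6 members where 7.54% of all genes were called. Ccr2 was 1.60-fold higher (log2 0.68 ± 0.0786, adjusted p = 4.3e-06), Cx3cl1 2.31-fold higher (1.21 ± 0.214, adjusted p = 0.00070), and Cxcr4 1.24-fold lower (-0.31 ± 0.0678, adjusted p = 0.0055). The Cxcr4 call was lost when only the libraries of the comparison were fitted (-0.31, adjusted p = 0.097) and without GM-noTC replicate 1 (-0.25, adjusted p = 0.14). In M at steady state 3 were higher and 1 lower, beside 27.2% of all genes. Ccr1 was 2.28-fold higher (1.19 ± 0.128, adjusted p = 3.3e-07), Cx3cr1 1.49-fold higher (0.57 ± 0.0675, adjusted p = 1.2e-06), Ccr2 1.33-fold higher (0.42 ± 0.103, adjusted p = 0.0042), and Cxcr4 1.67-fold lower (-0.74 ± 0.0639, adjusted p = 1.4e-08). The Ccr2 call was lost without M-noTC replicate 2 (0.32, adjusted p = 0.096) or without M-TC replicate 2 (0.39, adjusted p = 0.053).

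Ccrl2 did not differ between the dishes at steady state by the test, at -0.02 (95% interval -0.17 to 0.14) in GM and -0.04 (-0.22 to 0.14) in M. For a comparison with the excess found in the noTC steady state libraries, Ccrl2 averaged 536 CPM by library size in the 10 libraries of other conditions for GM and 538 CPM for M. The median excess of 0.675% and 0.600% of that mean is 3.62 CPM in GM and 3.23 CPM in M. Ccrl2 on noTC differed from TC by 0.00308% and -0.0879% of that mean. At 24.9 CPM in GM-TC and 15.5 CPM in M-TC by library size, Ccrl2 was not among the genes that defined the excess. Whether the excess reaches Ccrl2 was not tested. The corresponding differences between the dishes in GM were 2.18% for Cx3cr1, 6.79% for Cx3cl1, 107% for Ccr1, 458% for Ccr2 and -68.4% for Cxcr4. In M they were 2.58% for Cx3cl1, 3.92% for Ccr1, 20.5% for Ccr2, 605% for Cx3cr1 and -495% for Cxcr4. The 10 libraries were those with LPS and those of the other growth factor on noTC. A percentage is therefore large where a gene's mean in them was low, as for Cx3cr1 (12.3 CPM) and Cxcr4 (14.3 CPM) in M. With the median excess subtracted from the noTC libraries, every dish call at steady state stayed a call, Ccr1 in M at 1.06 and Cx3cl1 in GM at 1.14. Ccrl2 became a call in M (-0.39, adjusted p = 0.0030). The subtraction took 3.23 of 15 CPM from Ccrl2 in M-noTC, where the dishes had differed by -0.04. That call was thus made by the subtraction and is no result about Ccrl2. For most calls that stayed, this outcome was given beforehand. The subtraction took 0.0479 of 85.9 CPM from Ccr2 in GM-noTC. In M-noTC it took 0.125 of 17.7 CPM from Ccr2 and 0.0738 of 231 CPM from Cx3cr1. Cxcr4 was lower on noTC, so a subtraction there could not weaken its calls. Markers of other cells moved with the same comparisons. All 7 heart muscle markers were lower on noTC in GM and in M. Of 5 monocyte markers 2 were higher and 1 lower on noTC in GM, with F13a1 at 5.13 CPM on TC and 18 CPM on noTC, Vcan at 22.3 and 37.8 CPM and Chil3 at 820 and 481 CPM, and 1 was higher and 1 lower in M. In GM 1 of 6 dendritic cell markers tested was higher, with Dpp4 at 4.95 and 12.9 CPM, and 1 of 3 mast cell and basophil markers, with Gata2 at 2.27 and 5.15 CPM. Their part in these differences was not tested.

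Upon LPS challenge the dish calls in GM were Ccr1 (0.32 ± 0.0580, adjusted p = 0.0020) and Cx3cl1 (0.72 ± 0.105, adjusted p = 0.00020), both higher on noTC, where 2.80% of all genes were called. The Ccr1 call was lost without GM-TC-LPS replicate 2 (0.27, adjusted p = 0.075). Marker genes differed between the dishes with LPS too. In GM 2 of 5 monocyte markers were higher and 1 lower on noTC. Of 7 stromal and endothelial markers there 2 were higher and 3 lower. In M 1 of 8 macrophage markers was higher and 6 were lower on noTC. The part of these markers in the members' differences was not tested. In M with LPS 3 members were higher and 2 lower on noTC, beside 23.3% of all genes. Ccr2 was 2.52-fold higher (1.33 ± 0.221, adjusted p = 0.00012), Ccr1 1.70-fold higher (0.77 ± 0.168, adjusted p = 0.0019) and Cx3cr1 1.57-fold higher (0.65 ± 0.0853, adjusted p = 7.7e-06). Ccrl2 was 1.20-fold lower (-0.27 ± 0.0540, adjusted p = 0.00091) and Cx3cl1 1.19-fold lower (-0.25 ± 0.0814, adjusted p = 0.028). The Ccr1 call was lost without M-noTC-LPS replicate 1 (0.57, adjusted p = 0.095). The Cx3cl1 call was lost with DESeq2 (-0.27, adjusted p = 0.068), with library size only (-0.17, adjusted p = 0.17), and without M-noTC-LPS replicate 1, M-noTC-LPS replicate 2 or M-TC-LPS replicate 1 (adjusted p = 0.14, 0.11 and 0.32).

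The response to LPS itself was compared between cultures as the difference of the log2 fold changes. On TC the GM and M responses differed in 5 of 6 members, beside 41.1% of all genes, and on noTC in 5 of 6, beside 36.2%. The largest difference was that of Cx3cl1, whose rise was smaller in GM by 2.85 ± 0.294 on TC (adjusted p = 6.0e-08) and by 2.55 ± 0.204 on noTC (adjusted p = 1.4e-09). For Ccrl2 the smaller rise in GM, by 1.03 on TC, went with its higher steady state level. Between dishes the response differed in no member in GM by edgeR or DESeq2, where edgeR called 0.783% of all genes and 0 members had an unadjusted p under 0.05. The Cx3cl1 value was -0.49 there (95% interval -0.99 to 0.01). In M it differed in Ccr2, Cxcr4 and Cx3cl1, beside 10.6% of all genes.

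**Figure D4:**
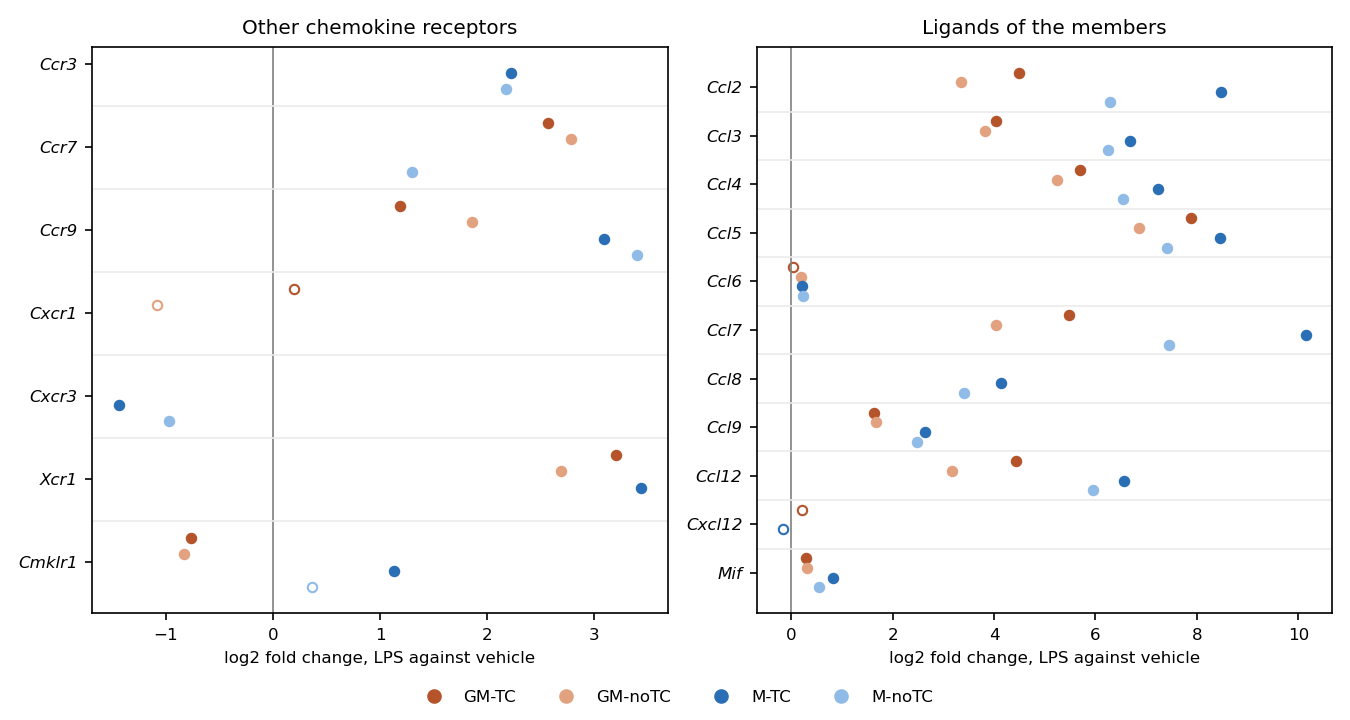
Log2 fold change of LPS against vehicle in the 4 cultures for other chemokine receptors (left) and for ligands of the 6 genes (right), with filled points for calls at an adjusted p under 0.05 and no point where either group averaged under 0.171 CPM. Ligands such as Ccl7 lie far above 0 in all 4 cultures, while Cmklr1 falls in both GM cultures and rises in M-TC.

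Of 19 other chemokine receptors 12 were tested, and upon LPS challenge 5 rose and 3 fell in GM-TC and 6 rose and 4 fell in GM-noTC. In M cultures 6 rose and 1 fell on TC, and 4 rose and 1 fell on noTC. In that order their median log2 fold changes were 0.69, 1.31, 1.24 and 0.32, against -0.05, -0.03, -0.01 and -0.01 over all genes tested. The shares of all genes called were 67.0%, 67.7%, 74.0% and 72.3% in the same order, so these counts do not set the receptors apart. Ccr7, which guides dendritic cells to lymph nodes, rose from 9.41 to 56.0 CPM in GM-TC (2.57 ± 0.107, adjusted p = 1.9e-15) and lay under 1 CPM in every M group. Cmklr1, the signalling receptor for chemerin, fell in GM-TC from 119 to 70.0 CPM (-0.76 ± 0.122, adjusted p = 1.1e-05) and in GM-noTC from 144 to 81.4 CPM (-0.83 ± 0.119, adjusted p = 2.5e-06). It rose in M-TC from 4.39 to 9.64 CPM (1.13 ± 0.230, adjusted p = 0.00014). Cxcr3 averaged at most 0.0684 CPM in GM and fell in M-TC from 3.05 to 1.11 CPM (-1.44 ± 0.336, adjusted p = 0.00058). Xcr1 rose in all 4 cultures, from 0.217 to 2.10 CPM in GM-TC. Ccr3, Ccr4, Ccr6, Ccr9, Cxcr1, Cxcr2, Cxcr6 and Ackr3 stayed at or under 3.70 CPM in every group.

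Of 13 ligands 11 were tested, and 9 rose in GM cultures on either dish, 10 in M-TC and 11 in M-noTC, while the others were not called. Their median log2 fold changes, GM before M and TC before noTC, were 4.03, 3.17, 6.57 and 5.96. Over all genes tested the medians were -0.05, -0.03, -0.01 and -0.01 in the same order. Of all genes 32.8%, 33.6%, 37.6% and 36.4% were called as higher with LPS, and 67.0%, 67.7%, 74.0% and 72.3% in either direction. The Ccr2 ligand Ccl2 rose from 51.4 to 1170 CPM in GM-TC and from 3.43 to 1220 CPM in M-TC. Ccl7, another Ccr2 ligand, rose from 6.96 to 312 CPM in GM-TC and from 0.719 to 819 CPM in M-TC. The inflammatory chemokines Ccl3, Ccl4 and Ccl5 reached 2270, 1560 and 1200 CPM in GM-TC-LPS and 4790, 2920 and 2100 CPM in M-TC-LPS. Ccl9, a Ccr1 ligand, rose from 1350 to 4200 CPM in GM-TC. Ccl6 was high in GM whatever the treatment, at 15600 CPM in GM-TC and 15900 CPM in GM-TC-LPS, against 233 and 271 CPM in M-TC and M-TC-LPS. Ccl8 and Ccl12 reached 3.82 and 83.3 CPM in M-TC-LPS, and Mif rose by 0.29 ± 0.0833 in GM-TC (adjusted p = 0.0037). Cxcl12, the ligand of Cxcr4, averaged at most 0.707 CPM in any group.

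Among 20 tested genes of receptor signalling and shedding, 7 rose and 10 fell in GM-TC and 8 rose and 9 fell in GM-noTC. In M cultures 10 rose and 8 fell on TC and 9 rose and 8 fell on noTC, and in that order the medians were -0.11, -0.05, 0.21 and 0.07. The shares of all genes called were 67.0%, 67.7%, 74.0% and 72.3% in the same order. Arrb1, a beta-arrestin that uncouples activated receptors, fell from 297 to 73.3 CPM in GM-TC and from 335 to 88.2 CPM in M-TC. The regulators of G protein signalling went both ways, Rgs2 falling from 63.2 to 12.4 CPM and Rgs1 rising from 66.7 to 184 CPM in GM-TC. Of the receptor kinases Grk6 fell from 41.5 to 19.3 CPM and Grk3 rose from 5.02 to 32.1 CPM in GM-TC. These 5 genes were called in the same direction in each culture. Rgs16 rose from 0.186 to 2.38 CPM in GM-TC and was called in all 4 cultures.

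Over the 8 group means, in log2 CPM and among 11720 genes, the genes with profiles most like each member were named by Pearson's r as a description. They were Il1rl2, Spint1 and Cyb561 for Ccr1 (r = 0.997, 0.997 and 0.996), Gask1b, Psrc1 and Prr33 for Ccr2 (0.990, 0.989 and 0.989), and Eid1, Nav2 and Mef2c for Cx3cr1 (0.998, 0.997 and 0.996). Zfp950, Tia1 and Ccnq were nearest to Cxcr4 (0.998, 0.997 and 0.997), C130026I21Rik, Pdcd5 and Ap3b1 to Ccrl2 (1.0, 0.999 and 0.998), and Icam5, Pak2 and Zcrb1 to Cx3cl1 (0.996, 0.996 and 0.995). Such values are common with 8 points that share the LPS and growth factor contrasts, since between 169 genes (Ccr2) and 758 genes (Ccrl2) had r above 0.95. Among the members themselves Cxcr4 and Ccrl2 were the most opposed (r = -0.995), followed by Cxcr4 and Cx3cl1 (-0.937), and Ccr1 and Cx3cr1 had r = -0.874.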

How the data were processed

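RNA-seq of 16 libraries was used. The authors aligned clean reads with HISAT2 and quantified genes with RSEM, and the submitters' processing notes also name fastp 0.18.0, Bowtie2 2.2.8 and StringTie 1.3.1. The deposited table holds expected counts per gene without normalization, and its genome build and annotation are not given in the sources used here. Groups were taken from the sample labels, and culture conditions also from the study's methods.

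Expected counts were rounded and scaled with TMM, and genes were filtered by group, leaving 12514 of 22287. edgeR 4.0.16 (R 4.3.3) was fitted once to the 8 groups by quasi-likelihood, with no term for replicates, for 12 pairwise comparisons and 4 differences of LPS responses, and tested on simulated data. No replicate pair agreed within sampling noise (chi-square per gene between 1.92 and 12.9, the highest in GM-TC). The floor of 3 counts covers counting error only. Lengths are merged exons of GENCODE M21, for 22253 genes.

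The 6 members are named in every comparison, with every tested gene of the lists of other receptors and ligands, up to 3 genes per direction of the signalling list that were called upon LPS challenge in all 4 cultures, the 3 genes most like each member, and some of the markers at 1 CPM or more. Defining markers below that level were named for their absence after their values were seen. One gene each of the other receptors and of the monocyte markers is not reported here. Members and lists were chosen with earlier results of these data known. Alternatives were DESeq2 1.42.0 and its size factors, library size only, no expression filter, the libraries of a comparison only, a replicate block, subtraction of the excess from noTC libraries, leaving out each library, and the study's threshold (fold change above 2, p under 0.05).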

Additional observations from a re-analysis of the deposited data

Results flagged for a closer look

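Responses to LPS that differed between cultures are given as differences of log2 fold changes from edgeR, with adjusted p-values. On TC, GM minus M, they were -1.48 for Ccr1 (1.8e-06), which fell in GM and was near level in M, 0.92 for Cx3cr1 (0.013) and 1.12 for Cxcr4 (0.00049), which fell less in GM, and -1.03 for Ccrl2 (2.0e-08) and -2.85 for Cx3cl1 (6.0e-08), which rose less in GM. On noTC they were -0.89 for Ccr1 (2.8e-05), -1.15 for Ccr2 (2.2e-05), 0.72 for Cx3cr1 (0.022), -0.80 for Ccrl2 (5.5e-07) and -2.55 for Cx3cl1 (1.4e-09). The Cx3cr1 difference was lost on TC without GM-TC-LPS replicate 1 (0.64, adjusted p = 0.22) and on noTC without GM-noTC-LPS replicate 2 (0.44, adjusted p = 0.35) or GM-noTC replicate 1 (0.71, adjusted p = 0.050). In M, noTC minus TC, they were 0.92 for Ccr2 (0.019) and 1.18 for Cxcr4 (0.0016), which fell less on noTC, and -0.79 for Cx3cl1 (0.039), which rose less on noTC. The Ccr2 difference was lost without M-noTC replicate 1 (0.85, adjusted p = 0.052), M-noTC-LPS replicate 2 (0.63, adjusted p = 0.18) or M-TC-LPS replicate 2 (0.72, adjusted p = 0.13). The Cx3cl1 difference was lost without M-noTC replicate 1 (-0.55, adjusted p = 0.28), both M-noTC-LPS replicates in turn (-0.78 and -0.79), both M-TC replicates in turn (-0.82 and -0.73) or M-TC-LPS replicate 1 (-0.70).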

How the results depend on the processing

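No value that was a call, in the report or under an alternative, changed sign. Under the study's threshold the number of members called on noTC against TC was 1 in GM at steady state, 1 in M at steady state, 0 in GM with LPS and 1 in M with LPS, since the fold change had to exceed 2. The replicate block changed no call, with 6 members called upon LPS challenge in GM-TC in the fit with it, and across genes the deviations of libraries with the same replicate number correlated between -0.0636 and 0.02 over 12 comparisons. Leaving out 1 library in turn gave between 1 and 2 members called on noTC against TC in GM with LPS, between 3 and 5 in M with LPS, and between 1 and 3 for the difference of LPS responses between dishes in M, and a group with 1 library was taken to vary like the others. Without the expression filter, Cx3cr1 on noTC against TC in GM at steady state (0.54, adjusted p = 0.036), Cx3cl1 in M at steady state (0.54, adjusted p = 0.048) and Ccr2 in GM with LPS (0.45, adjusted p = 0.016) became calls, and Cx3cl1 in M at steady state also did without M-noTC replicate 2 (0.80, adjusted p = 0.032). The difference of LPS responses of Cx3cl1 between dishes in M was lost with library size only (-0.69, adjusted p = 0.085) and after the subtraction (-0.67, adjusted p = 0.098). The subtraction took 0.221 of 2.94 CPM from Cx3cl1 in M-noTC and left the other M groups as they were. The direction of that change was therefore given beforehand. The cause of the other changes was not tested. Few counts per library lay behind Cx3cr1 in GM with LPS (19 to 37), Ccr2 in M-TC-LPS (21 and 34), Cxcr4 with LPS (31 to 54), Cx3cl1 at steady state on TC (33 to 41) and Ccr1 in M-TC and M-TC-LPS (40 to 66).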
